A study of Sus scrofa with 6 samples.

Results

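The genes of the circadian clock were followed from the last day of gestation to 2 days after birth in the lung of the pig. They were taken as a list of names: CLOCK, ARNTL (also called BMAL1), PER1, PER2, PER3, CRY1, CRY2, NR1D1, NR1D2 and DBP. Of these 10 genes, 8 were matched to a row of the deposited mRNA table, which holds 14579 mRNAs, and PER3 and NR1D1 were not analysed here. ARNTL matched 2 rows, so that the 8 genes gave 9 rows. One ARNTL row, ENSSSCG00000013396, could be matched only because the study had called it differentially expressed and named it. The samples were pieces of lung tissue of female piglets from Tibetan boars and Meishan sows, and the labels name no treatment or altered gene in either group. The fetal group, labelled prenatal, held 3 piglets taken from 3 sows on the last day before birth, and the neonatal group held 3 piglets of 3 other sows, taken 2 days after birth. Each piglet gave 1 strand-specific library depleted of ribosomal RNA.

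The clock is a feedback loop that runs in most cells of the body. CLOCK and ARNTL bind as a pair to E-boxes in DNA and switch on the PER and CRY genes, whose proteins return to the nucleus and silence the pair. A second loop joins ARNTL to nuclear receptors that bind the same DNA element, where the NR1D receptors (REV-ERBs) repress and the ROR receptors activate. DBP is a further target of CLOCK and ARNTL, and it drives output genes through D-boxes. PER1 is known in addition as a direct target of the glucocorticoid receptor and as a gene that stimuli can switch on within minutes. In the lung, the clock is best known from the airway epithelium, where it times the recruitment of neutrophils. The level of many of these transcripts depends on the hour of sampling. This hour is not given in the sources used here for either group, so a difference in clock phase, one in age and one in the way of delivery cannot be told apart.

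Levels are given as FPKM, fragments scaled to transcript length and to the mapped reads of the library, which the authors computed with Cufflinks. Since FPKM is divided by transcript length, levels were set side by side between genes, which holds only as far as the gene models are complete. The 2 ARNTL rows, which may be parts of a single gene, differed in level. In the fetal samples, ENSSSCG00000013396 stood at 0.49 to 0.79 times ENSSSCG00000013397. The groups were compared in limma on log2(FPKM + 1), fitted over all 14579 mRNAs, and log2(FC) stands for the neonatal mean minus the fetal mean on that scale, which understates changes of genes with low FPKM. Adjusted p values are those of limma after Benjamini-Hochberg adjustment over all mRNAs, and the threshold was an adjusted p of at most 0.05. The table holds no read counts, so the depth behind a single value cannot be given, and the error used was the spread between the 3 piglets of a group. The summed FPKM of a sample lay between 339491 and 777982. Over all mRNAs the median of log2(FC) was 0.13, and scaling the samples by median-of-ratios size factors moved it to -0.0090. Marker genes of lung tissue were abundant in each sample, with a summed FPKM of 4904 to 11816 over 8 alveolar type II cell genes.

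Of the 9 rows of clock genes, PER1 alone was past the threshold, and it was lower in the neonatal group. Over all mRNAs, 6.87% were past the threshold, with 1.45% lower and 5.41% higher in the neonatal group, so 1 row of 9 is a share near the background. An unadjusted p under 0.05 was found for 2 of the 9 rows, PER1 and NR1D2, and for 24.2% of all mRNAs. Every neonatal value lay below every fetal value for 3 rows (PER1, CRY2 and NR1D2), as it did for 9.64% of all mRNAs. No row of the clock genes had all neonatal values above all fetal values, which 20.9% of all mRNAs showed. The log2(FC) was negative for 7 of the 9 rows, against 40.1% of all mRNAs, and its median over the 9 rows was -0.34. Besides PER1, these differences did not pass the test one by one.

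**Figure D1:**
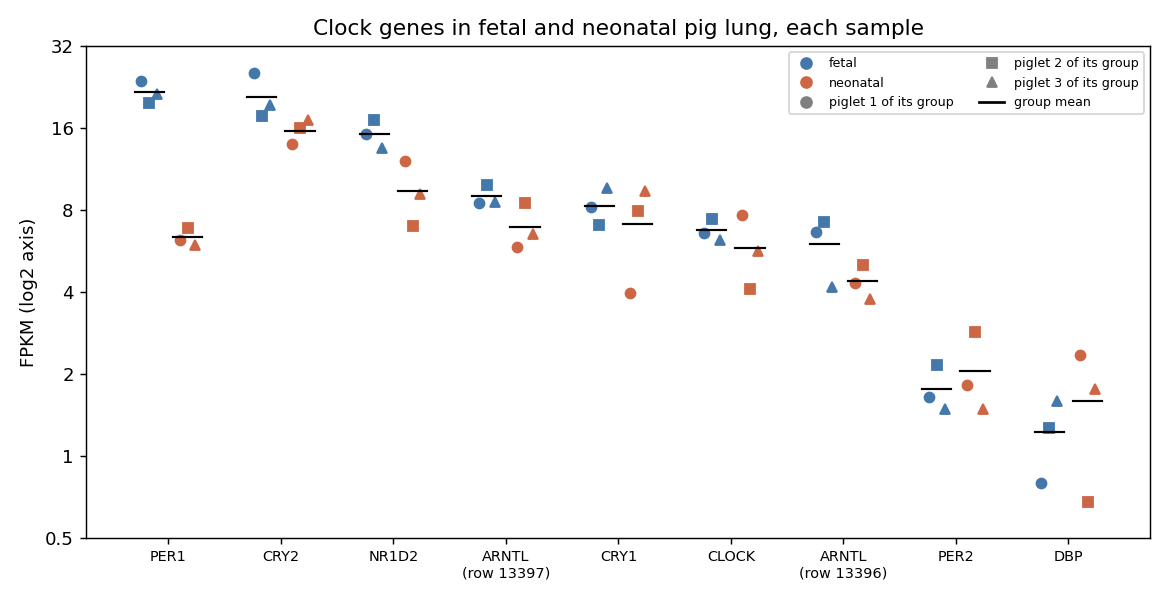
FPKM of each clock gene (log2 axis) in the 3 fetal and the 3 neonatal piglets, with symbols for the piglet number within its group and black lines for group means; the 2 ARNTL rows carry the last digits of their identifiers. PER1 falls from 19.8 to 23.8 FPKM in the fetal group to 5.96 to 6.84 FPKM in the neonatal group, and for 6 of the 9 rows the groups overlap.

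PER1 and PER2 encode the period proteins, the negative arm of the loop. PER1 (ENSSSCG00000017983) had 23.8, 19.8 and 21.4 FPKM in Fetal1, Fetal2 and Fetal3 (the order kept for all genes), and 6.22, 6.84 and 5.96 FPKM in Neonatal1, Neonatal2 and Neonatal3. All fetal piglets stood high and all neonatal piglets low, with a wide gap between them. The means of the groups were 21.7 ± 2.04 and 6.34 ± 0.450 FPKM (SD, n = 3), a ratio of 3.42 between the fetal and the neonatal mean. The log2(FC) was -1.63 (standard error 0.17, 95% interval -2.01 to -1.24, adjusted p = 0.00390 in limma), and by its p PER1 ranked 61 of 14579 mRNAs. The piglets of a group resembled each other closely, as 3.62% of all mRNAs had a spread within groups as small as that of PER1 or smaller, which was 0.110 on the log2 scale. In the order of all mRNAs by mean level, PER1 moved from percentile 85.7 in the fetal group to percentile 51.6 in the neonatal group. With each sample left out in turn, its log2(FC) stayed between -1.69 and -1.56 and its adjusted p between 0.0191 and 0.0299.

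PER2 (ENSSSCG00000016338), the close relative of PER1, was scarce and did not show this difference. It was measured at 1.65, 2.16 and 1.48 FPKM before birth and 1.82, 2.84 and 1.48 FPKM after birth. The groups overlapped fully, and Neonatal2 held the highest value. For PER2 the log2(FC) was 0.12, with a 95% interval from -0.43 to 0.67 that does not reach the change of PER1 (limma, adjusted p = 0.776). PER1 exceeded PER2 by 9.19 to 14.5 times in the fetal samples and by 2.40 to 4.02 times in the neonatal samples. On the log2(FPKM + 1) scale, PER1 minus PER2 was 3.04 ± 0.279 in the fetal group and 1.29 ± 0.237 after birth (SD, n = 3), a change of -1.75. All fetal values lay above all neonatal values (two-sided exact permutation test, p = 0.1, which is the lowest p that groups of 3 can give). Such differences were compared for 4 pairs, of which 1 was the pair of ARNTL models, and the adjusted p over these pairs was 0.4 for PER1 and PER2.

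The cryptochromes CRY1 and CRY2 are the partners of the period proteins and the strongest repressors of CLOCK and ARNTL. CRY2 (ENSSSCG00000013270) had 25.4, 17.6 and 19.5 FPKM before birth and 13.9, 15.9 and 17.1 FPKM after birth. The groups did not overlap, though Fetal2 and Neonatal3 lay close together. The log2(FC) of CRY2 was -0.38 (standard error 0.20, 95% interval -0.84 to 0.08, adjusted p = 0.279 in limma). It depended on scaling, at -0.55 after median-of-ratios scaling (limma, adjusted p = 0.0849) and -0.60 after quantile normalization (limma, adjusted p = 0.0564). CRY1 (ENSSSCG00000000164) had 8.16, 7.03 and 9.61 FPKM before birth and 3.96, 7.91 and 9.42 FPKM after birth. Neonatal1 was low, and the other neonatal values lay within the fetal range. The log2(FC) of CRY1 was -0.25, with a 95% interval from -0.95 to 0.44 (limma, adjusted p = 0.637), and it turned to 0.065 without Neonatal1. CRY1 minus CRY2 differed between the groups by 0.13 on the log2(FPKM + 1) scale (exact permutation test, two-sided p = 0.7, adjusted over the 4 pairs 0.9).

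CLOCK and ARNTL form the positive arm, and NPAS2 can stand in for CLOCK. CLOCK (ENSSSCG00000008909) had 6.59, 7.41 and 6.19 FPKM before birth and 7.64, 4.09 and 5.64 FPKM after birth. Its fetal values all lay between the highest and the lowest neonatal value. The log2(FC) of CLOCK was -0.22, with a 95% interval from -0.76 to 0.32 (limma, adjusted p = 0.599). NPAS2 had 2.05, 1.98 and 1.97 FPKM before birth and 2.57, 1.65 and 1.16 FPKM after birth. As for CLOCK, the fetal values stood close together and the neonatal values spread around them, and Neonatal1 was the highest for both genes. CLOCK exceeded NPAS2 by 3.13 to 3.74 times in the fetal samples and by 2.48 to 4.84 times in the neonatal samples, and the difference between them on the log2 scale changed by -0.08 (exact permutation test, two-sided p = 0.8, adjusted over the 4 pairs 0.9).

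ARNTL was represented by 2 gene models, which may be parts of a single gene that the annotation splits. With either model left out, 6 of 8 rows of the clock genes had a negative log2(FC), and the median was -0.30 or -0.31. ENSSSCG00000013397 carries the name BMAL1 in the reference table of gene names, and ENSSSCG00000013396 carries the name ARNTL in the table of the study. That table holds the mRNAs that the study called differentially expressed with Cuffdiff. The study therefore called ENSSSCG00000013396, which was not past the threshold in limma. The 2 tests differ in more than this row, as the study called more mRNAs than the 1001 called in limma. ENSSSCG00000013397 had 8.49, 9.89 and 8.52 FPKM before birth and 5.83, 8.50 and 6.51 FPKM after birth. ENSSSCG00000013396 had 6.66, 7.21 and 4.18 FPKM before birth and 4.30, 5.04 and 3.76 FPKM after birth. In both models Fetal2 was the highest fetal and Neonatal2 the highest neonatal sample, and the groups overlapped through Neonatal2 for ENSSSCG00000013397 and through Fetal3 for ENSSSCG00000013396. The log2(FC) was -0.34 for ENSSSCG00000013397 (95% interval -0.79 to 0.11, adjusted p = 0.326 in limma) and -0.37 for ENSSSCG00000013396 (95% interval -0.91 to 0.18, adjusted p = 0.378). The difference between the 2 models changed by -0.03 between the groups (exact permutation test, two-sided p = 0.9, adjusted over the 4 pairs 0.9). The relative of ARNTL, ARNTL2, was barely present, at 0.147, 0.165 and 0.198 FPKM before birth and 0.394, 0.408 and 0.736 FPKM after birth. Its neonatal values all lay above its fetal values, with a log2(FC) of 0.36 (limma, adjusted p = 0.314).

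**Figure D2:**
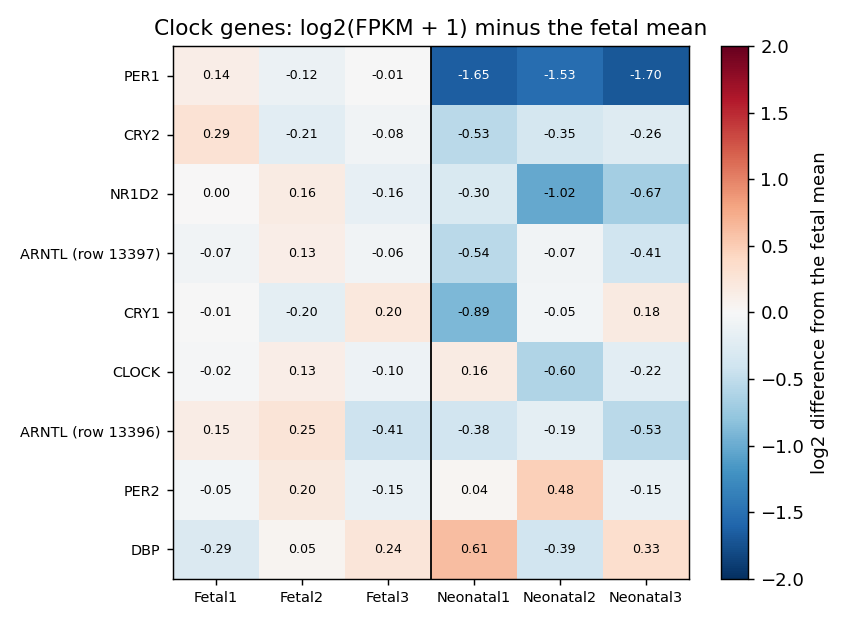
Difference of log2(FPKM + 1) from the fetal mean for each clock gene (rows, ordered by fetal level, with the last digits of the ARNTL identifiers) in each piglet (columns), blue for lower and red for higher. PER1 is the only row at or below -1.53 in all 3 neonatal piglets, while NR1D2, CRY1, CLOCK and DBP differ widely among them.

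NR1D2 (REV-ERB beta) is the repressor of the second loop that could be measured. It had 15.2, 17.1 and 13.5 FPKM before birth and 12.1, 6.98 and 9.15 FPKM after birth (ENSSSCG00000027017). Each neonatal piglet stood below each fetal one, Neonatal1 narrowly and Neonatal2 by a wide margin. The means were 15.2 ± 1.78 FPKM before and 9.42 ± 2.58 FPKM after birth (SD, n = 3), and the log2(FC) was -0.66 (standard error 0.23, 95% interval -1.19 to -0.14, adjusted p = 0.129 in limma). Under none of the other settings run, including each sample left out in turn, was NR1D2 past the threshold, with adjusted p values between 0.0646 and 0.332.

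Of the ROR receptors, which act on the same DNA element as NR1D2 and activate ARNTL, RORA fell. RORA had 9.78, 7.85 and 7.08 FPKM before birth and 2.82, 3.70 and 3.40 FPKM after birth. The lowest fetal value stood well above the highest neonatal one. Its mean was 8.24 ± 1.39 FPKM in the fetal and 3.31 ± 0.444 FPKM in the neonatal piglets (SD, n = 3), with a log2(FC) of -1.10 and a standard error of 0.20 (limma, adjusted p = 0.0213). The call was lost when single samples were left out, as the adjusted p of RORA rose to 0.0518 to 0.0991 without any one sample other than Neonatal1. RORB, a receptor of nervous tissue, was listed at 0 in Fetal2, Neonatal2 and Neonatal3 and did not exceed 0.795 FPKM.

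DBP and its relatives carry the signal of the clock to output genes. DBP (ENSSSCG00000003148) was the scarcest clock gene, with 0.792, 1.27 and 1.59 FPKM before birth and 2.35, 0.678 and 1.76 FPKM after birth. The neonatal group held both the highest and the lowest value. For DBP the log2(FC) was 0.18, with a 95% interval from -0.53 to 0.89 (limma, adjusted p = 0.743), and it turned to -0.028 without Neonatal1. HLF, which binds the same D-boxes, was far more abundant, at 12.8, 12.6 and 19.4 FPKM before birth and 12.3, 12.8 and 6.35 FPKM after birth. Fetal3 stood high and Neonatal3 low, and the other values lay together, with a log2(FC) of -0.50 (limma, adjusted p = 0.345). NFIL3, the repressor that competes for D-boxes, ranged from 2.53 to 7.41 FPKM in the fetal group and from 3.56 to 5.97 FPKM in the neonatal group, with a log2(FC) of -0.05 (limma, adjusted p = 0.942).

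The clock genes were also ordered by their mean FPKM in each group. In the fetal group the order was PER1, CRY2, NR1D2, ARNTL (ENSSSCG00000013397), CRY1, CLOCK, ARNTL (ENSSSCG00000013396), PER2 and DBP. PER1 and CRY2 did not differ beyond the spread of the piglets, nor did neighbours from ARNTL (ENSSSCG00000013397) to ARNTL (ENSSSCG00000013396), nor PER2 and DBP. The steps from CRY2 to NR1D2, from NR1D2 to ARNTL and from ARNTL to PER2 had no overlap of values. In the neonatal group CRY2 led alone, at 15.6 ± 1.60 FPKM (SD, n = 3). NR1D2, CRY1, ARNTL (ENSSSCG00000013397), PER1, CLOCK and ARNTL (ENSSSCG00000013396) followed, each overlapping with the next, and PER2 and DBP again came last. PER1 thus stood at place 1 in the fetal group and at place 5 in the neonatal group.

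Piglets of the same group differed in which clock genes were high. Among the neonatal piglets, Neonatal2 was the highest for 4 rows (both ARNTL rows, PER1 and PER2) and the lowest for 3 (CLOCK, NR1D2 and DBP), which were the 3 rows in which Neonatal1 was the highest. Neonatal3 was the highest for CRY1 and CRY2, for which Neonatal1 was the lowest. Among the fetal piglets, Fetal2 was the highest for 5 rows, namely CLOCK, both ARNTL rows, PER2 and NR1D2, and the lowest for PER1, CRY1 and CRY2. NR1D2 therefore went with ARNTL in the fetal group, where Fetal2 was the highest for both, but against it in the neonatal group, where Neonatal2 was the highest for ARNTL and the lowest for NR1D2. With 3 piglets a group this is a description and was not tested. On the log2(FPKM + 1) scale, the median of the 9 rows relative to their fetal means was -0.38, -0.35 and -0.26 in Neonatal1, Neonatal2 and Neonatal3, while that of all mRNAs was 0.05, 0.13 and 0.19.

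Beyond the clock genes themselves, 27 genes that act on the loop or are known outputs of it were considered, and 21 of them had a row. RORA was past the threshold, and 20 genes were not, beside 6.87% of all mRNAs past it. The mean on the log2 scale was higher in the neonatal group for 11 of the 21 and lower for 10, with a median log2(FC) of 0.0026. Values were fully separated between the groups for 2 genes that were lower and 4 that were higher in the neonatal group, beside 30.5% of all mRNAs in either direction.

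Of the genes that control the turnover and activity of clock proteins, 7 with a row were compared, and none was past the threshold in limma, and 2 of the 7 had an unadjusted p under 0.05, a share near the 24.2% of all mRNAs. NONO, an RNA-binding partner of the period proteins, had a log2(FC) of 0.61 (limma, adjusted p = 0.142) and TIMELESS, which in mammals also acts at replication forks, one of 0.60 (limma, adjusted p = 0.112). All neonatal values of both genes lay above all fetal values. SIRT1, a deacetylase that acts on the loop, had a log2(FC) of -0.37 (limma, adjusted p = 0.417).

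BHLHE40, which represses at E-boxes, had 6.42, 5.79 and 7.98 FPKM before birth and 5.89, 4.30 and 3.29 FPKM after birth. The groups overlapped through Neonatal1, and the log2(FC) was -0.51 (limma, adjusted p = 0.233). The row of BHLHE40 was likewise named from the mRNAs that the study called with Cuffdiff. Its relative BHLHE41 did not exceed 0.689 FPKM. Among the output genes, USP2, a deubiquitinase with a strong daily rhythm, had 1.81, 1.72 and 1.96 FPKM before birth and 1.24, 0.866 and 1.19 FPKM after birth. Its neonatal values lay below its fetal values, with a log2(FC) of -0.43 (limma, adjusted p = 0.217). WEE1, the kinase that holds back mitosis, had 1.78, 1.84 and 3.09 FPKM before birth and 4.10, 3.82 and 4.19 FPKM after birth. It was higher in each neonatal piglet, with a log2(FC) of 0.66 (limma, adjusted p = 0.120). KLF10 was high in Neonatal2 and Neonatal3, at 5.66 and 5.04 FPKM, but not in Neonatal1, at 1.12 FPKM, beside 0.649 to 1.76 FPKM in the fetal group. Its log2(FC) of 0.97 had an adjusted p of 0.244 in limma, and without Neonatal1 it was 1.49, with an adjusted p of 0.0450. The other 7 genes had log2(FC) values between -0.17 and 0.19.

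**Figure D3:**
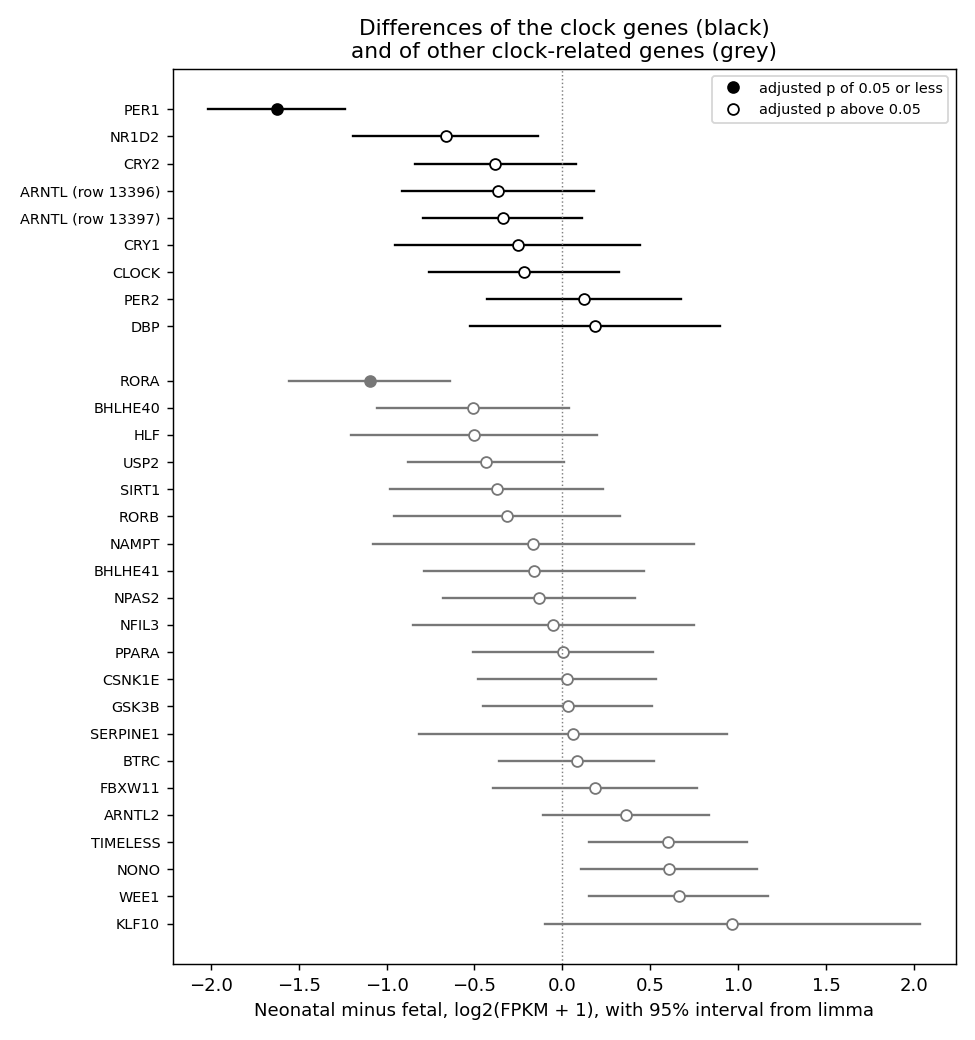
Neonatal minus fetal difference on the log2(FPKM + 1) scale with its 95% interval from limma for the clock genes (black) and other clock-related genes (grey), filled where the adjusted p over all mRNAs was 0.05 or less. PER1, at -1.63, and RORA, at -1.10, are the filled points, and the interval of PER1 does not meet that of any other black point.

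Since PER1 is also a target of the glucocorticoid receptor and a gene of the immediate early response, lists of both kinds were set beside it. Of 7 glucocorticoid response genes with a row, 3 were lower and past the threshold and 4 were not, beside 1.45% of all mRNAs lower and past it. The list was drawn up with earlier results of these data known. The mean was lower in the neonatal group for 5 of the 7 and higher for 2, with a median log2(FC) of -1.26. ZBTB16, a transcription factor strongly induced by glucocorticoids, had 53.4, 38.7 and 40.8 FPKM before birth and 6.45, 7.99 and 6.62 FPKM after birth (log2(FC) -2.49, adjusted p = 0.00163 in limma). KLF9, which is induced by glucocorticoids and also varies with the time of day, had 38.6, 21.6 and 25.0 FPKM before birth and 10.3, 8.42 and 8.84 FPKM after birth. In both genes, as in PER1, each neonatal piglet lay far below each fetal one. The log2(FC) of KLF9 was -1.49 (limma, adjusted p = 0.0152), and without Fetal3, Neonatal2 or Neonatal3 the adjusted p was 0.0550, 0.0770 and 0.0707. FAM107A was the other gene past the threshold (log2(FC) -2.64, adjusted p = 0.00166 in limma). Its row, like that of CEBPD, was matched only because the study had called it differentially expressed and named it. FKBP5, which dampens the glucocorticoid receptor, had 28.8, 11.2 and 11.1 FPKM before birth and 8.09, 5.97 and 4.08 FPKM after birth. Its groups did not overlap, but Fetal1 stood far above the others and the adjusted p was 0.106 in limma. The remaining members, named after their values were seen, differed less. CEBPD overlapped between the groups (log2(FC) -0.44, adjusted p = 0.461 in limma, and -0.89 with an adjusted p of 0.0449 after quantile normalization), as did DUSP1 (log2(FC) 0.09, adjusted p = 0.842 in limma). SGK1 had 52.8, 52.5 and 46.5 FPKM before birth and 56.5, 62.7 and 68.3 FPKM after birth, so that its neonatal values lay above its fetal values (log2(FC) 0.30, adjusted p = 0.343 in limma). The sign turned after quantile normalization for SGK1, and after quantile normalization and median-of-ratios scaling for DUSP1. The part of glucocorticoids in the fall of PER1 was not tested.

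Of 5 immediate early genes with a row, 4 rose past the threshold, namely FOS, JUNB, EGR1 and IER2, beside 5.41% of all mRNAs. The median log2(FC) of the 5 was 1.90. The exception was ATF3, whose groups overlapped (log2(FC) 0.20, adjusted p = 0.589 in limma). FOS, a subunit of the transcription factor AP-1, lay between 7.59 and 17.6 FPKM in the fetal group and between 49.2 and 73.6 FPKM in the neonatal group (log2(FC) 2.35, adjusted p = 0.00790 in limma). JUNB, another AP-1 subunit, had a mean of 77.5 ± 23.6 FPKM before birth and 313 ± 29.4 FPKM after birth (SD, n = 3, adjusted p = 0.00876 in limma). For the zinc finger factor EGR1 the means were 1.79 ± 0.993 and 9.51 ± 4.05 FPKM (SD, n = 3, adjusted p = 0.0223 in limma). IER2 had a log2(FC) of 1.33 (limma, adjusted p = 0.0157), and its adjusted p was 0.0621 to 0.0838 without Fetal2, Fetal3, Neonatal2 or Neonatal3. The neonatal values of these 4 genes all lay above the fetal values, while those of PER1 lay below. Without Neonatal3 the adjusted p of FOS was 0.0510, and without Neonatal2 that of JUNB was 0.0515. That of EGR1 was 0.0517 to 0.118 when any sample but Fetal3 was left out.

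**Figure D4:**
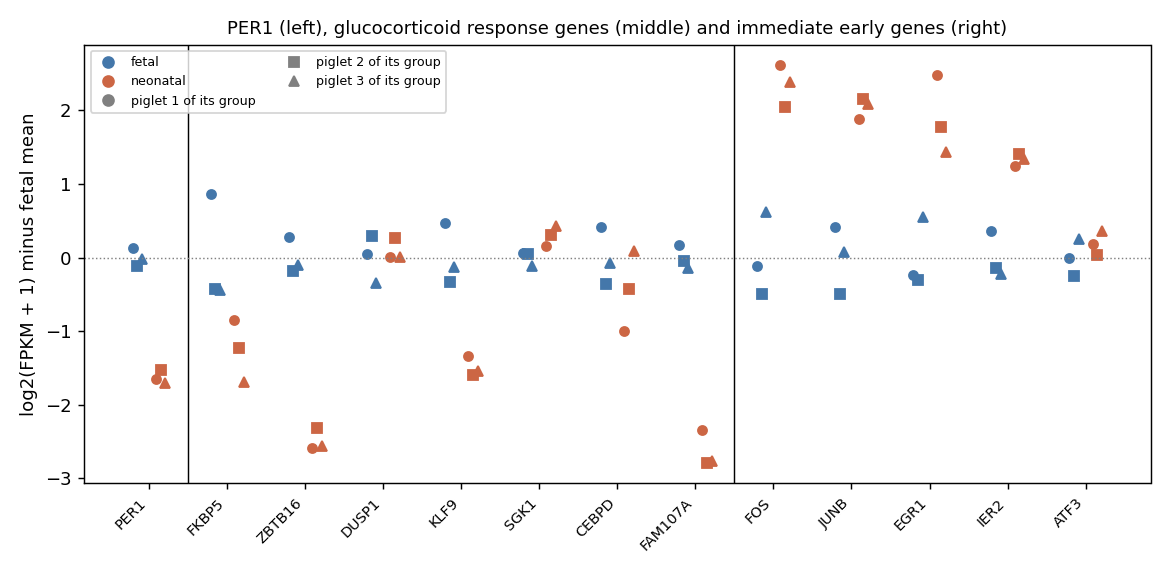
Difference of log2(FPKM + 1) from the fetal mean in each piglet for PER1 (left), 7 glucocorticoid response genes (middle) and 5 immediate early genes (right). PER1 lies low in the neonatal piglets together with ZBTB16, KLF9, FAM107A and FKBP5, while DUSP1 and CEBPD overlap between the groups and SGK1 lies slightly higher. FOS, JUNB, EGR1 and IER2 lie high, and ATF3 overlaps.

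Marker genes of dividing cells and of some cell types differed between the ages as well. Beside the counts that follow, 5.41% of all mRNAs rose past the threshold. In whole tissue, fewer cells of a type and less RNA per cell cannot be told apart. All 10 cell cycle genes with a row rose past the threshold, with a summed FPKM of 16.9 to 21.2 in the fetal group and 130 to 162 in the neonatal group. Of these, CCNA2 and AURKA were matched only because the study had called them differentially expressed and named them. Of 6 neutrophil markers 3 rose past the threshold, with sums of 83.4 to 154 and 846 to 1319 FPKM. Of 6 mesenchymal markers 2 rose past the threshold, ACTA2 and TAGLN (log2(FC) 1.74 and 1.75), and the 6 had sums of 1143 to 1523 and 2039 to 2902 FPKM. The other 4 were not past it, with log2(FC) values of 0.74 for COL1A2, 0.51 for COL3A1, 0.23 for PDGFRB and -0.17 for DCN. No marker on the lists for alveolar, airway, endothelial, macrophage, lymphocyte and erythroid cells was past the threshold in limma. Of these 40 markers, 11 had an unadjusted p under 0.05, beside 24.2% of all mRNAs. The lists were pooled because they held no call, so this share does not describe each list. Among the 11 were SFTPA1 and CLDN5, whose rows were matched only through the call of the study. All 6 macrophage markers had a higher mean after birth, 4 with an unadjusted p under 0.05. Of 5 airway markers, 4 had a lower and 1 a higher mean after birth, and 0 had an unadjusted p under 0.05. SCGB1A1 of that list had 139, 119 and 99.8 FPKM before birth and 62.2, 0.213 and 62.0 FPKM after birth. The 6 lymphocyte markers summed to 10.6 to 12.5 FPKM before birth and 7.16 to 21.2 FPKM after birth. The part of these shifts in the values of PER1 and RORA was not tested.

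For the likeness of pattern, ARNTL and DBP were compared over the 6 samples with 8711 mRNAs that had a symbol and a mean of at least 1 FPKM. The mRNAs with the highest Pearson coefficient to ARNTL (ENSSSCG00000013397) were COL4A6, CCDC18 and LMBR1, at 0.979, 0.979 and 0.972. For DBP they were PGAP1, SIPA1L2 and DAB2, at 0.956, 0.954 and 0.942. All points share the 6 libraries, and none of these mRNAs was on the clock lists. These mRNAs were picked as the closest of 8711 over only 6 samples. Their likeness therefore follows from the choice and was not tested. PGAP1, picked in this way for DBP, was highest in Neonatal1, at 8.26 FPKM, and lowest in Neonatal2, at 3.39 FPKM.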

How the data were processed

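Lung RNA of 3 fetal and 3 neonatal piglets was sequenced by the authors from strand-specific Ribo-Zero libraries. Reads were mapped with TopHat 2.1.0 to the pig genome Sscrofa10.2, and the deposited FPKM values were computed by the authors with Cufflinks 2.2.1. No mRNA of the 14579 in the table stayed at or below 0.5 FPKM in every sample. Tables of comparisons made by the authors were not used, apart from the gene names of 1 of them. All 6 value columns were matched to samples by name. Symbols came from a reference table for 9478 mRNAs and from the table of the study for 362. The latter holds the mRNAs that the study called differentially expressed in these samples, so rows named from it were matched only through that call. They include ARNTL (ENSSSCG00000013396), BHLHE40, CEBPD and FAM107A, the cell type markers SFTPA1, CLDN5, S100A9 and S100A12, and the cell cycle markers CCNA2 and AURKA. A gene without a matched row may still be present under an unnamed identifier. The deposited lncRNA table was not used.

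Values were analysed as log2(FPKM + 1) in limma 3.58.1, run in R 4.3.3, letting the prior variance follow the mean. Standard errors and 95% intervals are those of the moderated fit. Differences of log2(FPKM + 1) between related genes were compared with exact permutation tests in Python 3.11.15 with scipy 1.17.1. The FPKM ratios of these genes were not tested. The fit was tested on simulated data. The members and gene lists were chosen with earlier results of these data known. All clock genes, and all clock-related genes reported here and past the threshold, were named, and others were given by value. Likeness to NR1D1 had been planned, and DBP took its place. THRA, which overlaps NR1D1, was not matched either. Alternatives were pseudocounts of 0.5 and 0.1, scaling by median-of-ratios size factors, quantile normalization, a stricter filter (3 or more samples above 1 FPKM), a constant prior variance, blocking on the replicate number and leaving out each sample. No gene sequences or coordinates were used. Some of the related genes are not reported here and were left out of the counts of the list.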

Additional observations from a re-analysis of the deposited data

How the results depend on the processing

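PER1 was past the threshold under all 13 alternatives, with a log2(FC) between -1.82 and -1.56, and it remained the one clock gene called. Of the other clock genes, 1 was called (RORA), and between 0 and 2 with a sample left out (2 without Neonatal1, RORA and KLF10, and 0 without any other single sample). The number of mRNAs called was 1001 and lay between 196 and 944 with a sample left out. Calls with the higher level after birth made up 78.8% of the 1001, against 66.0% after median-of-ratios scaling and 57.9% after quantile normalization. With a sample left out, the log2(FC) changed sign within the ranges of -0.055 to 0.26 for PER2, -0.47 to 0.065 for CRY1, -0.028 to 0.47 for DBP, -0.33 to 0.033 for NPAS2, -0.38 to 0.25 for NFIL3 and -0.082 to 0.24 for DUSP1. It was -0.36 for DUSP1 and -0.039 for SGK1 after quantile normalization, and -0.084 for DUSP1 after median-of-ratios scaling. The cause was not tested.

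With the replicate number as a block, 401 mRNAs and 0 of the other clock genes were called, with adjusted p values of 0.0770 for RORA, 0.0579 for EGR1 and 0.0646 for IER2. Piglets of the same number came from different sows, and the correlations of their deviations from the group means were -0.0407, -0.00434 and 0.000466, so they share only a number. No piglet correlated best with the piglet of its own number.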
